A study of Mus musculus with 6 samples.

Results

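Collagen genes were examined in messenger RNA libraries of cultured keratinocytes, the cells of the mouse epidermis, that did or did not carry an inducible Cre recombinase. The members are every gene of the deposited count table whose symbol has the form Col, number, a, number, with Col17a1 left out because it belongs to the hemidesmosome; this gave 43 of 23420 genes. The 3 libraries labelled iKO (induced knockout) came from cells with K14CreERT2, a tamoxifen-activated Cre under the keratin 14 promoter, and Gata6 fl/fl, that is, loxP sites in both alleles of the transcription factor gene Gata6. The 3 libraries labelled WT came from Gata6 fl/fl cells without K14CreERT2, so both groups carried the floxed alleles, and both were grown in E medium low in calcium, used at passage 8 to 10 and exposed to 1 µM 4-hydroxytamoxifen for 6 hours. Whether the replicates are separate cultures or animals is not stated in the labels, and p-values therefore reflect the spread among these libraries alone, part of which may be technical.

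Collagens are secreted or membrane-bound proteins of the extracellular matrix whose chains wind into a triple helix built on glycine at every turn of the repeat. Fibrillar collagens form the tensile fibrils of connective tissue, FACIT collagens decorate those fibrils, and network collagens form the sheets of basement membranes. In skin, fibroblasts of the dermis make most of the fibrillar collagen, while keratinocytes secrete parts of the basement membrane beneath them, among them type IV chains and type VII collagen, which forms the anchoring fibrils that fasten the epidermis to the dermis.

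Reads assigned to genes numbered 32751896 to 83337263 in the libraries labelled iKO and 21943467 to 79055307 in those labelled WT. Gata6 itself did not follow its label: it averaged 17.4 ± 3.44 CPM (read counts scaled to library size) in the libraries labelled iKO and 2.92 ± 2.43 CPM in those labelled WT (SD, n = 3 each), with an edgeR adjusted p of 0.180. CreERT2 carries part of an estrogen receptor gene, and counts of the mouse estrogen receptor gene Esr1 did follow the labels. Esr1 measured 99.3, 92.1 and 29.6 CPM in iKO 3, iKO 4 and iKO 33, against 0.0922, 0.0633 and 0.284 CPM in WT 2, WT 3 and WT 4 (log2 fold change 9.10, edgeR adjusted p = 0.00678). Whether these reads came from K14CreERT2 or from Esr1 itself was not tested. Counts per gene do not show whether the floxed exons were lost, and every direction below is read by label, iKO over WT. Xist, a transcript of the inactive X, was at 1.17 ± 1.31 CPM in the libraries labelled iKO and 736 ± 143 CPM in those labelled WT (SD, n = 3 each), so the sex of the cells and the genotype label cannot be told apart. All 10 keratinocyte markers were tested, 4 lay higher and 6 lower in iKO, none passed the adjusted threshold in edgeR, and the list summed to 36029 to 52301 CPM in the libraries labelled iKO and 34182 to 47307 CPM in those labelled WT. Trp63, the transcription factor gene of basal epidermis, was lower in every library labelled iKO, at 199.5 ± 7.85 CPM against 320.4 ± 12.3 CPM in those labelled WT (SD, n = 3 each; log2 fold change -0.68, edgeR adjusted p = 0.0529). Cdh1, the E-cadherin gene, was higher in every library labelled iKO (0.55, edgeR adjusted p = 0.130), and Krt15, a keratin gene of basal and hair follicle stem cells, had -1.28 (edgeR adjusted p = 0.289). The part of these markers in the collagen results was not tested. The most abundant marker was Krt5, the basal type II keratin gene, at 19274 ± 3931 CPM in the libraries labelled iKO and 17623 ± 4171 CPM in those labelled WT (SD, n = 3 each).

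These cells used a small part of the collagen family. Collagen genes took 0.0954% to 0.135% of gene counts in the libraries labelled iKO and 0.101% to 0.149% in those labelled WT. Of those collagen counts, the 4 genes Col18a1, Col7a1, Col4a1 and Col4a2 held 92.3% to 95.4% in the libraries labelled iKO and 91.9% to 94.3% in those labelled WT. All 4 encode basement membrane or anchoring fibril collagens. Col17a1, the hemidesmosome collagen set aside above, had more counts than all 43 members together in each of the 6 libraries, at 1365 ± 197 CPM in the libraries labelled iKO and 1494 ± 210 CPM in those labelled WT (SD, n = 3 each).

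Set in order of level per exon length, the family fell into a few high genes and a long low tail. Per kb of exon, Col18a1 averaged 60.1 CPM over the 6 libraries, Col4a2 32.4, Col7a1 27.8 and Col4a1 27.2. Col18a1 was above Col4a2 in 5 of the 6 libraries, the exception being WT 3, at 45.7 against 49.3 CPM per kb. Col4a2, Col7a1 and Col4a1 changed places between libraries, whereas Col4a1 exceeded the next gene in every library. That next level was held by Col8a1 at 2.50 and Col12a1 at 2.50 CPM per kb, which were not separable. Col12a1 was in turn above Col5a1, at 0.652 CPM per kb, in each of the 6 libraries. Below them Col16a1 had 0.551, Col9a3 0.366, Col20a1 0.356 and Col19a1 0.253 CPM per kb, with ranges that overlapped from each gene to the next.

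**Figure D1:**
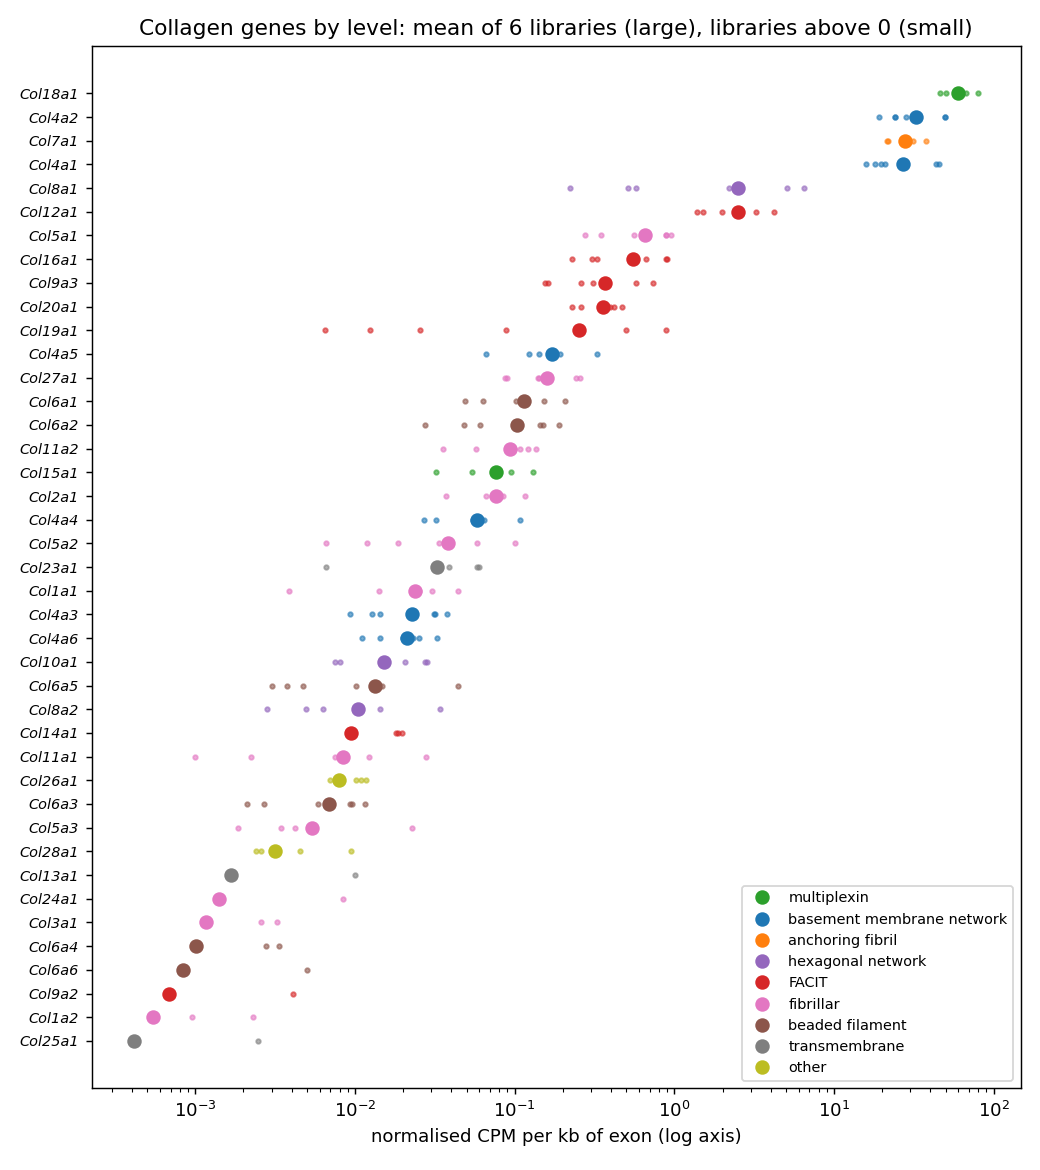
Level of the 41 collagen genes with any count, as normalised CPM per kb of exon on a log axis, with large points for the mean of the 6 libraries, small points for single libraries above 0 and colours for collagen classes. Col18a1, Col4a2, Col7a1 and Col4a1 stand apart from the rest, with means from 27.2 to 60.1, and the next gene, Col8a1, is at 2.50.

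The collagens of dermal fibroblasts were close to absent. Over all 6 libraries together, Col1a1, a chain of the main fibril collagen of skin, had 43 reads, its partner Col1a2 had 2 and Col3a1, the other main dermal fibril chain, had 4. Col1a1 averaged 0.204 ± 0.0731 CPM in the libraries labelled iKO and 0.105 ± 0.0876 CPM in those labelled WT (SD, n = 3 each). Of 10 fibroblast marker genes, Dcn, Lum and Fap had no count in any library, and the list summed to 30.2 to 52.7 CPM in the libraries labelled iKO and 24.0 to 49.9 CPM in those labelled WT. Most of that sum was Fbln1, a fibulin gene, at 33.6 CPM in the libraries labelled iKO and 31.3 CPM in those labelled WT. None of the 4 tested fibroblast markers passed edgeR's test after adjustment; 3 lay higher in iKO and 1 lower.

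A filter on low counts (edgeR's filterByExpr, which here needed about 0.254 CPM in at least 3 libraries) kept 21 of the 43 members. No kept member exceeded that level in one group alone, but Col6a1, Col6a2, Col15a1 and Col11a2 did so in all 3 libraries of one group and in 2 of the other. The other 22 members held 345 reads in all and stayed at or below 0.415 CPM in every library. Among these were all transmembrane members (Col13a1, Col23a1, Col25a1), Col26a1 and Col28a1, the network genes Col10a1, Col8a2 and Col4a6, and Col6a3 to Col6a6. They also held the fibrillar genes Col1a1, Col1a2, Col3a1, Col5a3, Col11a1 and Col24a1, and the FACIT genes Col9a1, Col9a2, Col14a1 and Col22a1. Col9a1 and Col22a1 had no count in any library, which at 3 counts per group allows up to 0.0186 CPM in the libraries labelled iKO and 0.0221 CPM in those labelled WT, for counting error only. Col11a1, a cartilage fibril gene, had 3, 7 and 30 reads in iKO 3, iKO 4 and iKO 33, against 0, 1 and 1 reads in WT 2, WT 3 and WT 4.

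edgeR's quasi-likelihood test called no collagen gene at an adjusted p under 0.05, while over the whole table it called 43 of 12672 tested genes (0.339%). At an unadjusted p under 0.05 the test marked 9 of the 21 members (42.9%), 5 with a higher and 4 with a lower level in iKO, against 15.0% of all tested genes. Without WT 3 the count was 4 of 22 (18.2%), against 14.9% of all genes tested in those 5 libraries. With each of the other libraries left out in turn it was 6 to 8 of 21 or 22. These were 27.3% to 36.4% of members, against 11.1% to 13.4% of all genes tested so. With no count filter the count was 10 of 41 (24.4%), against 11.7% of all genes tested so. A filter of at least 1 CPM in 3 libraries gave 7 of 13 (53.8%), against 15.1%. The libraries numbered 3 and 4 without a block gave 5 of 21 (23.8%), against 7.75%. By direction the 9 of the main test were 23.8% of members higher and 19.0% lower, against 7.32% and 7.70% of all tested genes. DESeq2 called 5 members (Col16a1, Col12a1, Col6a2, Col4a1 and Col19a1), 23.8% of those tested against 6.12% of all tested genes. With limma-voom 0 were called, against 0.489% of all tested genes. In a single draw of simulated counts, made with edgeR's own estimates of spread, DESeq2 made 55 false calls and edgeR 7. In that draw DESeq2 recovered 80 of 100 genes changed by a fold of 2, and edgeR 60. The changed genes all had means above those of Col16a1, Col6a2 and Col19a1, so the recovered counts do not cover these members. The authors' deposited table of their own test gave 4 of the 19 members that have an adjusted p there under 0.05 (Col16a1, Col12a1, Col6a2 and Col4a1), against 5.90% of its genes. In the authors' deposited table the log2 fold changes of these 4 were -1.25, -0.90, 1.20 and -0.78; that table rests on the same libraries. Members whose groups did not overlap numbered 4 of 21 (19.0%), close to the 21.9% of all tested genes. The median log2 fold change of the 21 was 0.16, with 12 above 0 and 9 below, against a median of 0.0091 and 51.2% above 0 over all tested genes. In bulk libraries such as these, fewer cells of a kind and less RNA per cell cannot be told apart.

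**Figure D2:**
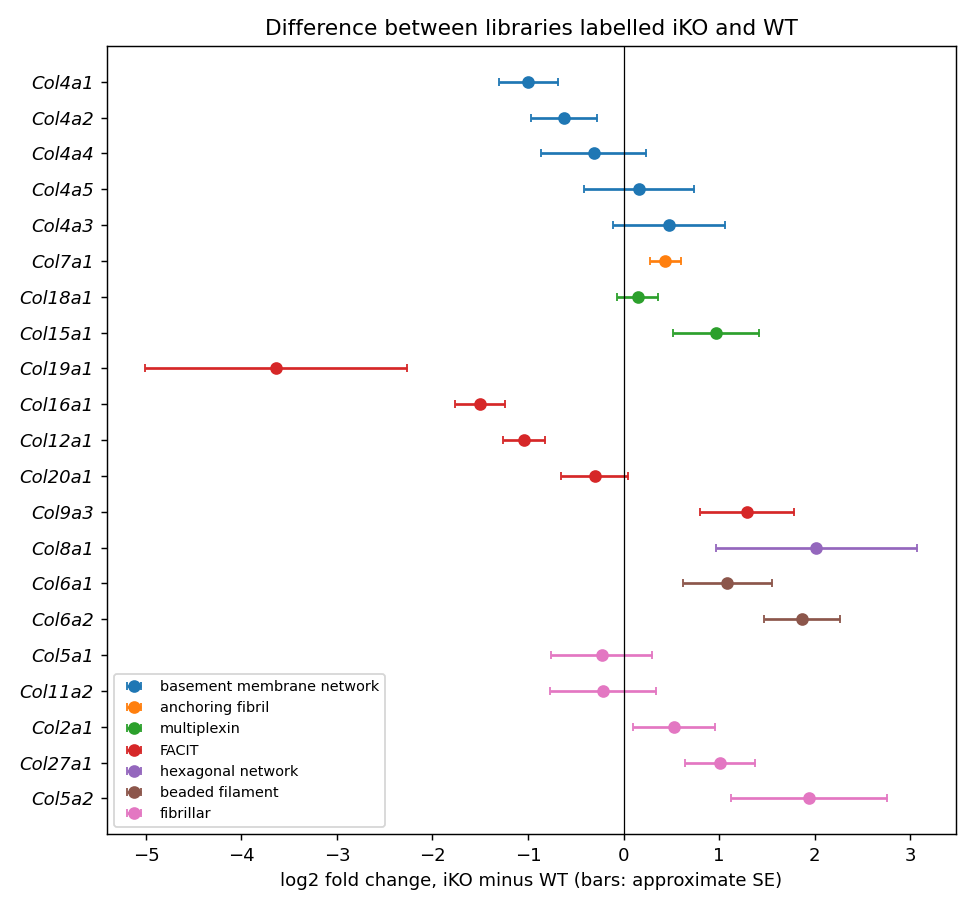
Log2 fold change, iKO minus WT, of the 21 collagen genes that passed the count filter, grouped and coloured by class, with bars for the approximate SE. Col19a1, Col16a1, Col12a1 and Col4a1 lie lowest, from -3.64 to -0.997, and Col8a1, Col5a2 and Col6a2 highest, from 1.87 to 2.02; none passed the adjusted threshold in edgeR.

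Type IV collagen forms the sheet-like network of every basement membrane, and its most widespread trimer joins chains from Col4a1 and Col4a2. The genes sit head to head on chromosome 8 of mm10, Col4a1 on the minus strand (11198423 to 11312826) and Col4a2 on the plus strand (11312805 to 11449287), so that their annotated starts overlap by 22 bases. The windows around their starts, shown because one stretch of DNA serves as the start region of both genes, come from RefSeq on GRCm38.p6 and are given 5′ to 3′ on the strand of each gene, at chr8:11312777-11313076 for Col4a1 and chr8:11312555-11312854 for Col4a2. Capitals mark the 78 bases, 11312777 to 11312854, that both windows hold and that read as reverse complements of each other.
Col4a1: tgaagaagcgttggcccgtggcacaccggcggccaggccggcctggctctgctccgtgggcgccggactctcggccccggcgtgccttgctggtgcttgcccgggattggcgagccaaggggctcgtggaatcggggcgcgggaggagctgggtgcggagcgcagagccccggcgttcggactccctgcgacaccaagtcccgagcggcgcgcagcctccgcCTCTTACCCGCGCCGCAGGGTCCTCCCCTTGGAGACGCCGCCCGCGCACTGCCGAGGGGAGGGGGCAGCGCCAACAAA
Col4a2: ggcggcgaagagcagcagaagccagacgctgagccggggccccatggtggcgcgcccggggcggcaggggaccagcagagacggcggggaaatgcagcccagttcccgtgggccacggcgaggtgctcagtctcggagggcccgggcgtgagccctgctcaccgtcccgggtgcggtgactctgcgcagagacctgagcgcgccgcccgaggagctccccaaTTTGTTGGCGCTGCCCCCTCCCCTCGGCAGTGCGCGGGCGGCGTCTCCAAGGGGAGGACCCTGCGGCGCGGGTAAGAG
The windows are 74.0% and 73.7% G or C, against a median of 52.7% over 32851 promoter windows of the same length. On either strand, GGGCGG (the GC box) occurs 1 time in the Col4a1 window and 3 times in the Col4a2 window and in 35.7% of all windows; CCAAT occurs 1 time in each and in 37.4% of all windows. GATAA, one form of the sequence that GATA factors recognise, occurs in neither window and in 25.4% of all windows, and TATAAA in neither and in 13.6%. Other forms of the GATA sequence were not counted. Of the 21 tested members 16 had a window, and 2 of these, Col6a2 and Col11a2, held GATAA.

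Both type IV chains were at low values in all 3 libraries labelled iKO and in 1 labelled WT. Col4a1 measured 118, 134 and 154 CPM in iKO 3, iKO 4 and iKO 33, against 326, 339 and 147 CPM in WT 2, WT 3 and WT 4. Col4a2 measured 159.6, 159.4 and 187 CPM in iKO 3, iKO 4 and iKO 33, against 327, 327 and 126 CPM in WT 2, WT 3 and WT 4. The groups overlapped for both genes through WT 4, which lay within the range of the libraries labelled iKO for Col4a1 and below all of them for Col4a2; WT 2 and WT 3 stood about level with each other. Col4a1 had a log2 fold change of -0.997 (SE 0.31; edgeR adjusted p = 0.214), and DESeq2 called it (adjusted p = 0.0306, with 0.654 the highest among the alternatives). For Col4a2 it was -0.62 (SE 0.34; edgeR adjusted p = 0.444). Without WT 4 it was -1.30 for Col4a1 and -0.96 for Col4a2, over 1.5 times the value with all libraries for Col4a2. Endothelial cells also make type IV chains. Of 5 of their markers 2 were tested, and both lay lower in iKO with overlap between groups. The list summed to 7.29 to 8.94 CPM in the libraries labelled iKO and 9.31 to 19.0 CPM in those labelled WT. Most of that sum was Kdr, at 6.05 CPM in the libraries labelled iKO and 10.2 CPM in those labelled WT, with 16.7 CPM in WT 3. Emcn was at 0, and Cdh5 had 1 read and Tek 12 over all 6 libraries. The 5 pericyte and muscle markers summed to 9.31 to 29.3 CPM in the libraries labelled iKO and 7.32 to 55.7 CPM in those labelled WT. Most of this was Acta2, at 19.6 CPM in the libraries labelled iKO and 30.0 CPM in those labelled WT. The part of either list in these results was not tested.

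The balance of both chains, a comparison chosen after the values were seen, separated the libraries by label, WT 4 included. Col4a2 counts divided by Col4a1 counts gave 1.35, 1.19 and 1.21 in iKO 3, iKO 4 and iKO 33, against 1.00, 0.965 and 0.857 in WT 2, WT 3 and WT 4. The means were 1.25 ± 0.0904 in the libraries labelled iKO and 0.941 ± 0.0759 in those labelled WT (SD, n = 3 each), a difference of 0.41 on the log2 scale. A two-sided exact permutation test gave p = 0.1, the smallest that 3 against 3 libraries allow, and 0.4 after Benjamini-Hochberg adjustment over the 4 chain pairs computed. The other 3 pairs overlapped between groups: Col6a2 over Col6a1 averaged 2.23 ± 1.13 in the libraries labelled iKO and 1.24 ± 0.528 in those labelled WT, and the pairs Col5a2 over Col5a1 and Col4a5 over Col4a6 had exact permutation p of 0.3 and 0.4.

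**Figure D3:**
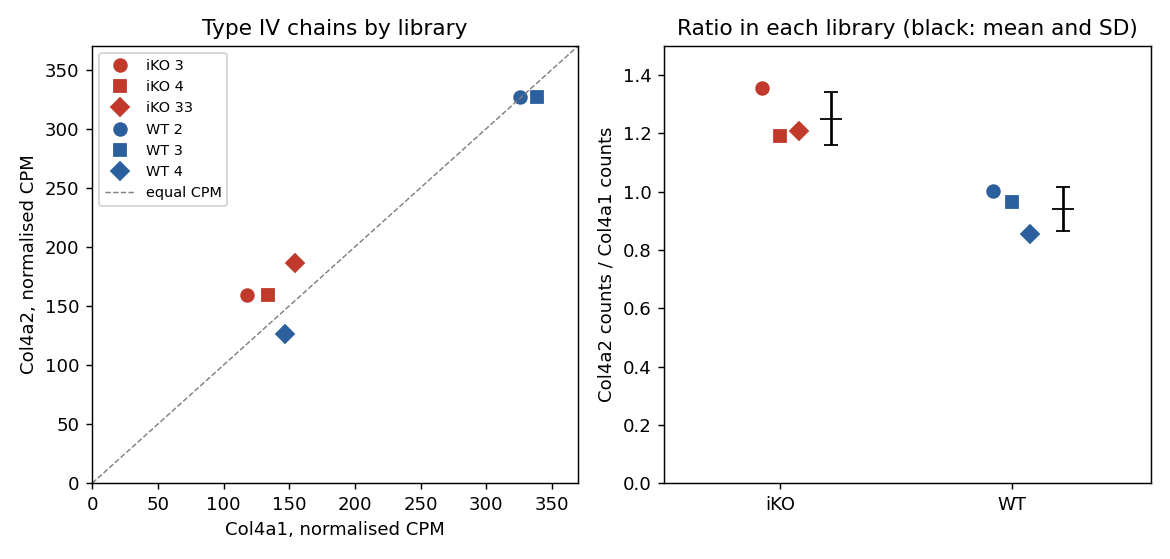
Left, normalised CPM of Col4a2 against Col4a1 in each of the 6 libraries, with a dashed line where both are equal; right, Col4a2 counts divided by Col4a1 counts in each library, iKO left of WT, with the mean and SD in black. WT 4 shares the low levels of the libraries labelled iKO but has a ratio of 0.857, below 1.19, the lowest ratio among the libraries labelled iKO.

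The other type IV chains, which replace the common pair in basement membranes such as those of the kidney, were scarce. Col4a5 lies on the X chromosome and measured 0.959, 0.444 and 2.21 CPM in iKO 3, iKO 4 and iKO 33, against 1.29, 1.16 and 0.824 CPM in WT 2, WT 3 and WT 4. Its groups overlapped, and the log2 fold change was 0.16 (SE 0.58), or -0.65 without iKO 33. Col4a3 (0.48, SE 0.59) and Col4a4 (-0.31, SE 0.55), a head-to-head pair on chromosome 1 with 71 bases between their starts, did not pass either. Without WT 2 the value of Col4a4 was 0.20, and without WT 3 that of Col4a3 was 1.21. Reads of Col4a3 are uncertain, since 5.65% of its exon bases are shared with an antisense transcript that the kit, which does not mark strand, cannot tell apart.

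Type VII collagen forms the anchoring fibrils, and Col7a1 (chromosome 9, 108953586 to 108984875, plus strand, mm10) was among the most abundant members. It measured 322, 386 and 279 CPM in iKO 3, iKO 4 and iKO 33, against 281, 225 and 222 CPM in WT 2, WT 3 and WT 4. The groups touched at iKO 33 and WT 2, whose values were almost equal. The means were 329 ± 53.6 CPM in the libraries labelled iKO and 243 ± 33.3 CPM in those labelled WT (SD, n = 3 each), a log2 fold change of 0.44 (SE 0.16; edgeR adjusted p = 0.274).

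Col18a1 (chromosome 10, 77052178 to 77166548, minus strand, mm10), the most abundant member, encodes a basement membrane collagen of the multiplexin class whose end fragment is endostatin. It measured 354, 561 and 416 CPM in iKO 3, iKO 4 and iKO 33, against 474, 321 and 407 CPM in WT 2, WT 3 and WT 4, and the groups overlapped throughout. Its log2 fold change was 0.15 (SE 0.21; edgeR adjusted p = 0.799), or -0.06 without iKO 4. Its relative Col15a1, also a multiplexin, was far lower, at 0.634 ± 0.183 CPM in the libraries labelled iKO and 0.335 ± 0.129 CPM in those labelled WT (SD, n = 3 each). Its groups did not overlap, by a margin of 0.471 CPM in iKO 33 against 0.461 CPM in WT 2, and the log2 fold change of 0.97 (SE 0.45) did not pass (edgeR adjusted p = 0.372).

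FACIT collagens, which bind the surface of fibrils and do not form fibrils themselves, held the pair of members with the smallest p-values. The class summed to 27.9, 34.7 and 29.6 CPM in iKO 3, iKO 4 and iKO 33, against 76.3, 63.7 and 48.5 CPM in WT 2, WT 3 and WT 4. As a share of collagen counts it made up 2.59% to 2.80% in the libraries labelled iKO and 4.95% to 5.07% in those labelled WT. Most of the class sum was Col12a1, and the 5 tested members did not all lie on one side: 4 log2 fold changes were below 0 and that of Col9a3 was above.

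Col12a1 (chromosome 9, 79598991 to 79718831, minus strand, mm10) encodes a long fibril-bound collagen of stressed and remodelling tissue. It measured 21.2, 30.5 and 22.9 CPM in iKO 3, iKO 4 and iKO 33, against 64.2, 49.6 and 39.9 CPM in WT 2, WT 3 and WT 4. All libraries labelled iKO lay below all labelled WT, with a log2 fold change of -1.04 (SE 0.22). The edgeR adjusted p was 0.114 and that of DESeq2 was 0.00114, with a highest value of 0.633 among the alternatives.

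Col16a1 (chromosome 4, 130047840 to 130099283, plus strand, mm10), a minor collagen made by keratinocytes as well as by fibroblasts, had the smallest p of the family. It measured 1.53, 2.07 and 2.20 CPM in iKO 3, iKO 4 and iKO 33, against 5.99, 4.48 and 6.05 CPM in WT 2, WT 3 and WT 4. The means of 1.93 ± 0.352 CPM in the libraries labelled iKO and 5.51 ± 0.891 CPM in those labelled WT (SD, n = 3 each) were separated by far more than the spread within either group. The log2 fold change of -1.50 (SE 0.26) had an edgeR adjusted p of 0.0757 and a DESeq2 adjusted p of 3.45e-05. The highest edgeR adjusted p was 0.600, in the libraries numbered 3 and 4 without a block. Among the other alternatives it was 0.289, without WT 2. The fold change stayed between -1.63 and -1.36 under every alternative computed, each library left out in turn included.

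Col19a1, a rare FACIT gene, measured 0.607, 0.0444 and 0.176 CPM in iKO 3, iKO 4 and iKO 33, against 3.41, 6.13 and 0.0853 CPM in WT 2, WT 3 and WT 4. WT 4 again lay among the libraries labelled iKO, with only 3 reads, while WT 3 had 484. Its log2 fold change was -3.64 (SE 1.37, edgeR adjusted p = 0.287, DESeq2 adjusted p = 0.0432), and it ranged from -4.73 without iKO 3 to -2.72 without WT 3. The authors' deposited DESeq2 table, whose settings are not stated, gave Col19a1 -0.37 with an adjusted p of 0.374.

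Col9a3, which encodes a chain of the cartilage collagen type IX, measured 2.21, 1.000 and 2.83 CPM in iKO 3, iKO 4 and iKO 33, against 0.599, 1.19 and 0.625 CPM in WT 2, WT 3 and WT 4. The groups overlapped at iKO 4 and WT 3, and the log2 fold change was 1.29 (SE 0.49; edgeR adjusted p = 0.287). Its partners were missing: Col9a1 had no count in any library and Col9a2 had 1 read in all. Of the exon bases of Col9a3, 6.07% are shared with Tcfl5 on the other strand, so some of its reads are uncertain. Col20a1 measured 2.43, 1.18 and 1.33 CPM in iKO 3, iKO 4 and iKO 33, against 2.03, 2.16 and 1.85 CPM in WT 2, WT 3 and WT 4, with overlap and a log2 fold change of -0.30 (SE 0.35). That of Col20a1 was -0.68 without iKO 3, -0.11 without iKO 4 and -0.17 without iKO 33.

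Col8a1, a short-chain network collagen known from blood vessels and the cornea, varied widely between libraries of both groups. It measured 4.00, 50.6 and 39.7 CPM in iKO 3, iKO 4 and iKO 33, against 4.47, 1.75 and 17.2 CPM in WT 2, WT 3 and WT 4. WT 4 was the highest library labelled WT, as it was the lowest for type IV chains, and iKO 3 was below WT 2. The log2 fold change of 2.02 (SE 1.05; edgeR adjusted p = 0.424) was 3.39 without WT 4 and 1.495 without iKO 4. Its partner chain Col8a2 had 18 reads over all 6 libraries.

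Type VI collagen forms beaded microfibrils next to basement membranes from chains of Col6a1, Col6a2 and a longer chain from one of the other genes of the family. Col6a2 (chromosome 10, 76595762 to 76623630, minus strand, mm10) measured 1.57, 1.24 and 1.20 CPM in iKO 3, iKO 4 and iKO 33, against 0.507, 0.228 and 0.398 CPM in WT 2, WT 3 and WT 4. These values rest on 49, 56 and 102 reads in the libraries labelled iKO and 11, 18 and 14 reads in those labelled WT, and the groups did not overlap. The log2 fold change of 1.87 (SE 0.40) had an edgeR adjusted p of 0.118 and a DESeq2 adjusted p of 0.0137, with 0.598 the highest among the alternatives.

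Col6a1, on the same chromosome, measured 0.448, 0.666 and 0.906 CPM in iKO 3, iKO 4 and iKO 33, against 0.277, 0.215 and 0.483 CPM in WT 2, WT 3 and WT 4. Its groups overlapped at iKO 3 and WT 4, and the log2 fold change was 1.09 (SE 0.47; edgeR adjusted p = 0.337). The longer chains were scarce, with 21 reads of Col6a3, 3 of Col6a4, 29 of Col6a5 and 1 of Col6a6 over all 6 libraries. Both Col6a1 and Col6a2 passed the count filter with 3 libraries labelled iKO and 2 labelled WT above its level. The fibroblast marker sums given above, mostly Fbln1, overlapped between the groups, and the part of these markers in the type VI values was not tested.

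**Figure D4:**
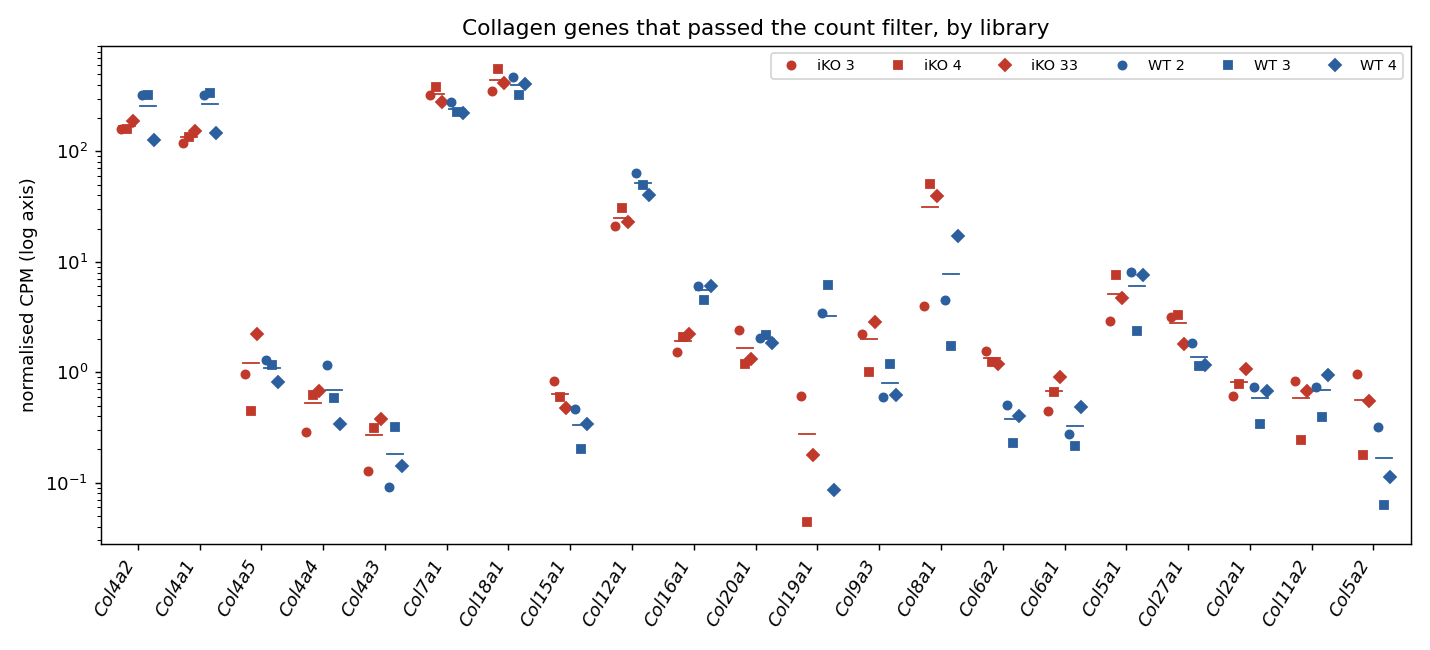
Normalised CPM on a log axis of the 21 collagen genes that passed the count filter, with 1 point for each library, iKO in red left of WT in blue, and short lines for the group means. Col12a1 and Col16a1 are lower, and Col6a2 and Col15a1 higher, in every library labelled iKO than in any labelled WT; WT 4 lies within the range of the libraries labelled iKO for Col4a1 and Col19a1 and below it for Col4a2.

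Fibrillar collagens beyond types I and III were present at a few CPM or less. Col5a1, which encodes a chain that helps start fibrils, measured 2.94, 7.55 and 4.73 CPM in iKO 3, iKO 4 and iKO 33, against 8.07, 2.34 and 7.56 CPM in WT 2, WT 3 and WT 4. Its groups overlapped fully, with a log2 fold change of -0.23 (SE 0.53) that turned to 0.16 in limma-voom. Col5a2, the usual partner chain, measured 0.959, 0.178 and 0.553 CPM in iKO 3, iKO 4 and iKO 33, against 0.323, 0.0633 and 0.114 CPM in WT 2, WT 3 and WT 4. The log2 fold change of Col5a2 was 1.94 (SE 0.82; edgeR adjusted p = 0.330), with overlap because iKO 4 lay below WT 2.

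Col27a1, a fibrillar gene known from cartilage, measured 3.16, 3.33 and 1.81 CPM in iKO 3, iKO 4 and iKO 33, against 1.84, 1.14 and 1.17 CPM in WT 2, WT 3 and WT 4. The groups overlapped narrowly, at iKO 33 and WT 2, and the log2 fold change was 1.01 (SE 0.36; edgeR adjusted p = 0.266). Col2a1, the main cartilage fibril gene (0.53, SE 0.43), and Col11a2 (-0.21, SE 0.55) overlapped and did not pass. Col2a1 had 0.28 without iKO 33 and 0.22 without WT 3, and Col11a2 ranged from -0.53 without WT 3 to 0.15 without iKO 4. The cartilage markers Acan, Matn1 and Comp had 0, 13 and 7 reads over all libraries; Sox9, which hair follicle keratinocytes also express, gave nearly all of that list's 68.7 to 86.4 CPM in the libraries labelled iKO and 76.5 to 89.6 CPM in those labelled WT.

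**Figure D5:**
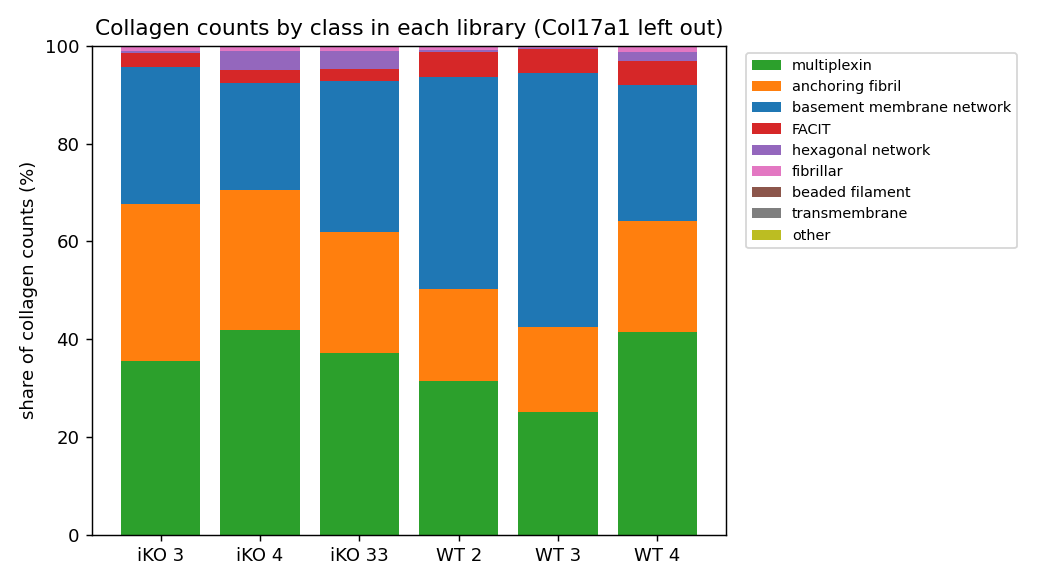
Share of collagen counts taken by each class in each of the 6 libraries, in percent, with iKO left of WT and Col17a1 left out. The basement membrane network takes 21.96% to 30.7% in the libraries labelled iKO and 28.0% to 52.0% in those labelled WT, and the anchoring fibril gene takes 24.9% to 32.3% in the libraries labelled iKO and 17.5% to 22.6% in those labelled WT. A lower share of one class raises the shares of the others. In CPM the groups overlapped for the anchoring fibril gene, Col7a1, with 279 in iKO 33 and 281 in WT 2.

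Summed over all members, collagen stood at 1155 ± 174 CPM in the libraries labelled iKO and 1257 ± 262 CPM in those labelled WT (SD, n = 3 each), a difference within the spread of either group. The basement membrane network summed to 306 ± 34.2 CPM in the libraries labelled iKO and 532 ± 223 CPM in those labelled WT, and 274 CPM in WT 4 was below all 3 libraries labelled iKO. Hexagonal network genes summed to 31.6 ± 24.4 CPM in the libraries labelled iKO and 7.86 ± 8.30 CPM in those labelled WT. The beaded filament class summed to 2.15 ± 0.0847 CPM in the libraries labelled iKO and 1.014 ± 0.389 CPM in those labelled WT (SD, n = 3 each), with no overlap.

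Genes that make, cut and bind collagen were taken from 6 lists, of which 70 genes were in the table and 49 were tested. None passed an adjusted p of 0.05 in edgeR; 11 (22.4%) had an unadjusted p under 0.05, against 15.0% of all tested genes, and of these 7 lay higher in iKO and 4 lay lower. DESeq2 called 6 of the 49 (12.2%), against 6.12% of all tested genes, and limma-voom 0, against 0.489%. Groups did not overlap for 9 of the 49 (18.4%), close to the 21.9% of all tested genes. The median log2 fold change of the 49 was 0.022, with 25 above 0 and 24 below.

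The lowest value among them belonged to Fkbp10, a prolyl isomerase of the endoplasmic reticulum that folds procollagen and assists its cross-linking. It measured 3.61, 1.35 and 1.45 CPM in iKO 3, iKO 4 and iKO 33, against 35.2, 13.5 and 32.8 CPM in WT 2, WT 3 and WT 4. All libraries labelled iKO lay far below all labelled WT, with a log2 fold change of -3.69 (SE 0.54). In edgeR the adjusted p was 0.0568, and 0.0497 without WT 3. The DESeq2 adjusted p was 4.28e-12, and the highest among the alternatives was 0.569. Leprel1, a prolyl hydroxylase gene that prefers basement membrane collagen, measured 4.57, 5.04 and 3.73 CPM in iKO 3, iKO 4 and iKO 33, against 12.2, 12.2 and 7.99 CPM in WT 2, WT 3 and WT 4. These groups did not overlap either, with a log2 fold change of -1.28 (SE 0.24; edgeR adjusted p = 0.0910, DESeq2 adjusted p = 0.000165).

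In the same list of 17 tested folding and hydroxylation genes, 6 values were above 0 and 11 below. Plod2, a lysyl hydroxylase gene that acts before cross-linking, stood at 54.4 ± 17.0 CPM in the libraries labelled iKO and 29.5 ± 5.97 CPM in those labelled WT (SD, n = 3 each), and Lepre1, a prolyl hydroxylase gene that acts on fibrillar chains, at 2.58 ± 1.67 CPM in the libraries labelled iKO and 0.892 ± 0.338 CPM in those labelled WT. The groups overlapped for each gene. Neither passed in edgeR (adjusted p = 0.204 for Plod2 and 0.311 for Lepre1), and DESeq2 called Plod2 (adjusted p = 0.0380). Serpinh1, the collagen chaperone gene, and P4hb, a subunit of prolyl 4-hydroxylase, were abundant and their groups overlapped, with log2 fold changes of -0.37 (SE 0.27) and 0.24 (SE 0.14).

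Of 9 tested secretion genes 6 were above 0, and Sec23a, a coat protein of the vesicles that carry procollagen, was the 1 with an unadjusted p under 0.05. It stood at 71.7 ± 14.0 CPM in the libraries labelled iKO and 46.3 ± 6.02 CPM in those labelled WT (SD, n = 3 each). Its groups did not overlap, with a log2 fold change of 0.63 (SE 0.17, edgeR adjusted p = 0.178, DESeq2 adjusted p = 0.0362). Of 5 tested propeptide cleavage genes, Tll1, a relative of the procollagen protease Bmp1, had a log2 fold change of -1.28 (SE 0.49; edgeR adjusted p = 0.295). None of 5 tested cross-linking genes reached an unadjusted p of 0.05; Tgm2 among them had 1.48 (SE 0.71).

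Among 8 tested receptors 5 were above 0 and 3 below. Ddr1, the receptor tyrosine kinase for collagen in epithelia, measured 260.1, 209 and 219.9 CPM in iKO 3, iKO 4 and iKO 33, against 177, 159.8 and 146 CPM in WT 2, WT 3 and WT 4. The groups did not overlap, and the log2 fold change was 0.52 (SE 0.13; edgeR adjusted p = 0.160, DESeq2 adjusted p = 0.0199). Itga2, the collagen-binding integrin subunit of the epidermis, had 12.6 ± 8.83 CPM in the libraries labelled iKO and 40.6 ± 21.4 CPM in those labelled WT (SD, n = 3 each), with overlap and a log2 fold change of -1.68 (SE 0.67; edgeR adjusted p = 0.311). Cd44, which encodes a matrix receptor, was higher in every library labelled iKO than in any labelled WT, with a log2 fold change of 0.37 (SE 0.14; edgeR adjusted p = 0.284).

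Of 10 collagen-degrading proteases 5 were tested, and the secreted collagenase genes Mmp1a, Mmp8 and Mmp13 stayed under the count filter. Mmp14, the membrane-bound collagenase that activates other proteases, measured 142, 204 and 134 CPM in iKO 3, iKO 4 and iKO 33, against 85.2, 75.2 and 103 CPM in WT 2, WT 3 and WT 4. All libraries labelled iKO lay above all labelled WT, with a log2 fold change of 0.86 (SE 0.20; edgeR adjusted p = 0.138, DESeq2 adjusted p = 0.00470). Ctsl, a lysosomal cathepsin gene, had 0.59 (SE 0.23; edgeR adjusted p = 0.303) with overlap.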

How the data were processed

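Total RNA of 3 keratinocyte samples labelled iKO and 3 labelled WT was made into TruSeq RNA v2 libraries. Per the submitters' processing notes, reads were handled with TopHat2 and HTSeq on mm10; gene annotation and strand setting are not named there. One deposited table holds raw counts per gene symbol, and its 5 HTSeq summary rows were left out. These rows held 27.4% to 32.0% of counts in the libraries labelled iKO and 34.8% to 35.5% in those labelled WT, without overlap. The part of this difference in the results was not tested. A second deposited table gives, per the file headers, a DESeq2 mean normalised signal, log2 fold change, Wald score and p-values; its settings are not stated. The column numbered 33 matches no iKO title and was used as an iKO replicate without a number of its own. No 2 libraries agreed within sampling noise (chi-square per degree of freedom at least 48.6).

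The counts as deposited were tested with edgeR 4.0.16 (R 4.3.3): filterByExpr (minimum count 10), TMM scaling, glmQLFit and glmQLFTest with robust estimation, group as the only term, Benjamini-Hochberg adjustment over all 12672 tested genes. Fold changes are iKO minus WT; SE is the absolute log2 fold change over the square root of F. In a single draw of simulated counts, edgeR called 60 of 100 genes with a fold of 2 and 93 of 100 with a fold of 4. It made 7 false calls, out of 12535 genes tested. DESeq2 1.42.0 called 80 and 96, with 55 false. The changed genes were drawn only from genes with means above that of Col16a1 (3.72 CPM), so these figures do not cover it or members at lower levels. Exon lengths and positions come from GENCODE on mm10; all 43 members were found there. Members, classes and lists were chosen with earlier results of these data known. Per-library values are given for members with a mean of at least 1 CPM or an unadjusted p under 0.05, and a few others for comparison; listed pathway genes are named at an unadjusted p under 0.05, and others named were chosen after their values were seen. Alternatives were other scalings and filters, DESeq2, limma-voom (limma 3.58.1), no robust estimation, a replicate block and leaving out each library; the libraries numbered 3 and 4 without a block were added after seeing the data. Intervals and floors cover counting error only.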

Additional observations from a re-analysis of the deposited data

How the results depend on the processing

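The count of collagen genes past an adjusted p of 0.05 was 0 under every alternative but DESeq2, which called 5, and the count of collagen pathway genes was 0 under all but DESeq2 (6), the replicate block (2, Tgm2 and Itga2, neither called in the same libraries without the block; Itga2 had -1.93 with it, adjusted p 0.0493 in edgeR, and -1.68 without it, 0.717) and leave-one-out fits (0 to 1, Fkbp10 without WT 3). Over all genes, 43 calls became 76 with no count filter, 775 in DESeq2, 103 with the replicate block over libraries 3 and 4, 4 for those libraries without the block, and 7 (without WT 2) to 31 (without WT 3) when 1 library was left out. The replicate block moved the median of the tested collagen genes to -0.063; elsewhere it stayed between 0.055 and 0.38. Deviations of same-numbered libraries had correlations across genes of 0.30 (number 3) and 0.66 (number 4), against -0.57 and -0.53 for the crossed pairs. Among pairs with unlike numbers, iKO 3 had 0.33 with WT 2, above its value with WT 3, and iKO 33 had 0.23 with WT 3. With only 2 same-numbered pairs these values do not establish pairing.

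Of the values of single genes under alternatives, 474 kept direction and call, 13 newly passed and 15 changed sign, all for genes whose SE exceeds the fold change, and the cause was not tested. With the block or in the same libraries without it, Col4a3 was -0.089 and -0.082, Col4a5 -0.56 and -0.52, and Col5a1 0.16 and 0.093; Col5a1 was 0.16 in limma-voom. With 1 library left out, Col11a2 ranged from -0.53 to 0.15, Col18a1 from -0.057 to 0.29, Col4a4 from -0.64 to 0.20, Col4a5 from -0.65 to 0.56 and Col5a1 from -0.63 to 0.045. No scaling reversed a collagen gene. Depth limits the genes under 1 CPM most, as the shallowest library has 0.138 CPM for 3 counts.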
